A study of Mus musculus with 6 samples.

Results

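The regions described are the open chromatin around 10 genes that mark injury and repair of the kidney tubule: Spp1, Havcr1, Lcn2, Sox9, Vcam1, Krt8, Krt18, Clu, Vim and Cd44. They were measured by ATAC-seq, where a transposase inserts sequencing adapters wherever chromatin is open. A region belonged to a gene when its strongest summit, the position of highest signal, lay in the gene body or within 50 kb of it (mouse build GRCm38, GENCODE release M21). This gave 71 of the 99359 regions found in the series, 11 of them shared by the neighbouring genes Krt8 and Krt18, which overlap in their windows. A region with its summit within 1 kb of an annotated start of a member gene was called a promoter region (11 regions), and the other 60 were called distal.

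All libraries were from hand-dissected S1 proximal tubules, the first stretch of tubule after the glomerulus, of wild-type male C57BL/6 mice operated on at 7 weeks of age. The 3 Sham libraries were from mice with a sham operation and the 3 UNx libraries from mice with 1 kidney removed (unilateral nephrectomy), and both were labelled 24 h. Each library held 3 tubule pieces. Nothing in the labels ties libraries to single mice, so the p-values below measure the spread between these libraries, part of which may be technical.

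An injured proximal tubule cell loses part of its transport program and switches on genes that a resting cell keeps low. Spp1, Lcn2 and Clu encode secreted proteins, Krt8, Krt18 and Vim intermediate filament proteins, Havcr1, Vcam1 and Cd44 surface receptors and adhesion molecules, and Sox9 a transcription factor of the repairing epithelium. Removal of 1 kidney leaves a remaining kidney that enlarges without a direct injury to its tubules. The comparison asks whether chromatin at these genes differs between the tubules of mice that lost a kidney and those that did not.

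Each library had its own peak list, of 77355 to 100999 peaks, the shortest being that of Sham 2. The lists hold no read counts, so the sequencing depth is unknown. Peaks were compared by percentile rank within the 77355 strongest of each list, ordered by the authors' −log10 q, where 100 is the strongest and 0 means absent. A region was tested where at least 3 lists held it, and of the 74781 such regions limma called 589 (0.788%), that is, these had an adjusted p under 0.05; 325 of them ranked higher after UNx and 264 lower. Markers of the labelled cell type were open at their starts: 9 of 10 S1 marker genes had a start summit in all 6 lists, and Slc22a8 had none. With Slc22a8 counted as 0, the 10 genes had a mean percentile of 78.8 to 79.2 in the Sham and 77.4 to 79.3 in the UNx libraries. Of 12 endothelial, stromal and immune markers, 7 (Acta2, Cd3e, Cd68, Csf1r, Pdgfrb, Ptprc and Tagln) had a start summit in no list. Col1a1 and Kdr had one in all 6 deposited lists, and Flt1, Cdh5 and Pecam1 in some. The 12 averaged 7.58 to 8.94 in Sham and 4.83 to 5.51 in UNx libraries. Most of that average came from Col1a1, at 69.4, 68.9 and 69.1 in Sham and 53.8, 66.1 and 63.0 in UNx libraries. The 5 podocyte markers averaged 32.4 to 39.0 and 37.5 to 44.4, the 4 parietal epithelial markers 72.5 to 75.9 and 72.7 to 74.5, the 6 S2 and S3 markers 17.3 to 28.8 and 12.4 to 13.5, and the 9 markers of other nephron segments 29.8 to 32.3 and 26.3 to 32.8. Podocytes, parietal cells and later tubule segments are the neighbours a dissected piece can carry, and their part in the results was not tested. In a library from many cells, a site open in fewer cells and a site less open in each cell cannot be told apart.

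The 10 genes differed widely in how open their starts were. The strongest summit within 1 kb of a start was found in all 6 deposited lists for Spp1, Krt8, Krt18, Clu and Vim, in some lists for Sox9, Vcam1 and Havcr1, and in none for Lcn2 and Cd44. Among all 21938 protein-coding genes, 58.8% had such a summit in all 6 lists and 34.4% in none. The injury markers were thus neither uniformly closed nor uniformly open in S1 tubules under either operation.

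**Figure D1:**
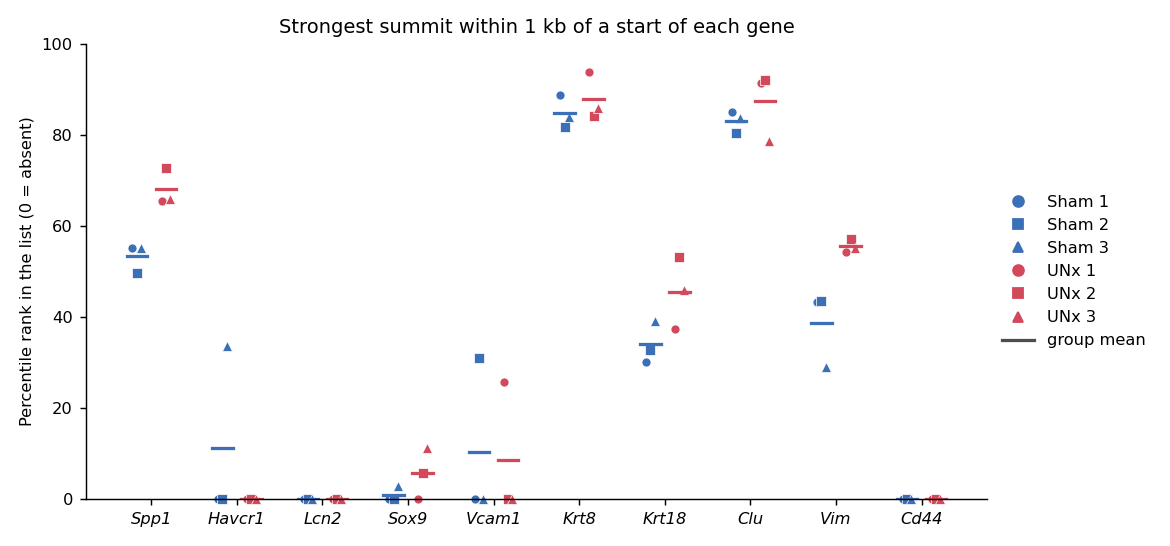
Percentile rank (0 to 100, 0 meaning absent from the 77355 strongest peaks) of the strongest summit within 1 kb of an annotated start of each of the 10 genes, in each of the 3 Sham and 3 UNx libraries, with a line at each group's mean. Krt8 and Clu lie near the top of the scale, Spp1, Krt18 and Vim in the middle, and Lcn2 and Cd44 at 0; for Spp1 and Vim the 3 UNx values lie above the 3 Sham values.

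Of the 4 genes with a promoter region in all 6 lists, Spp1, Krt18 and Vim ranked low among promoters and Clu near the middle. The mean percentile over the 6 libraries was 53.1 at Spp1, 39.7 at Krt18, 85.3 at Clu and 47.0 at Vim. Krt8 is not among them because its start summit is merged into a wider region, described below, although its start summit was as strong as that of Clu. The median of the 12433 protein-coding promoters present in all 6 lists was 87.5 (quartiles 74.7 and 94.9). Krt18, Vim and Spp1 lay at the 3.88, 6.23 and 8.61 percentiles of those promoters, and Clu at the 44.0 percentile. The 47 tested distal regions had a median mean percentile of 58.6, but 9 of them lie at starts of other protein-coding genes. The other 38 had a median of 49.9, against 41.9 for the 60773 tested regions away from any protein-coding start, and those in the bodies of other genes had a median of 22.3.

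**Figure D2:**
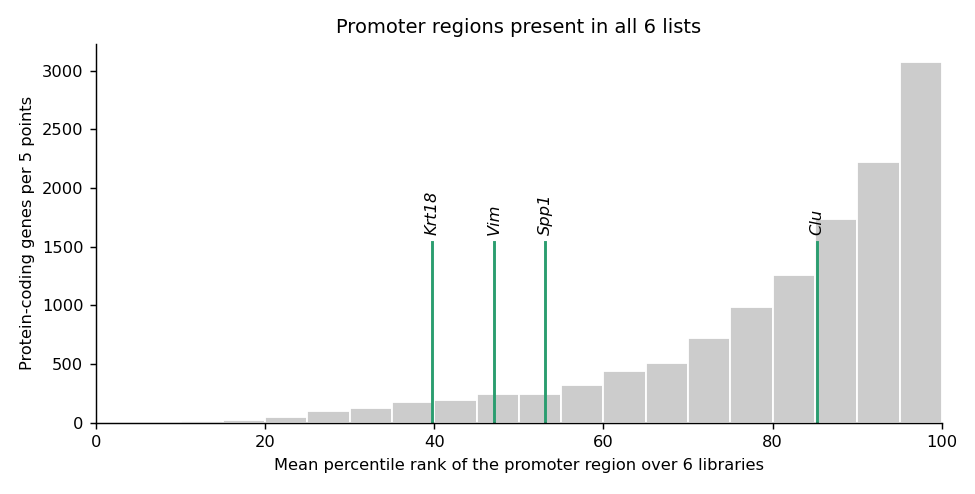
Number of protein-coding genes (vertical axis, per 5 percentile points) by the mean percentile rank of their promoter region over the 6 libraries, for the 12433 genes whose promoter region was in all 6 lists. Lines mark Krt18 at 39.7, Vim at 47.0, Spp1 at 53.1 and Clu at 85.3; the median of the distribution is 87.5.

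Between the operations, 1 of the 54 tested member regions was called, against 0.788% of all tested regions. It was a distal region downstream of Krt18 that fell after UNx. An unadjusted p under 0.05 was found for 9 of the 54 (18.6% of all tested regions had one). In 9 of the 54 (16.7%) the groups did not overlap, with UNx above Sham in 5 and below it in 4, against 23.7% of all tested regions. The shares with an unadjusted p under 0.05 and with separated groups were below their background. The share called was not below its background, but it rests on a single region. Of the 54, 30 ranked higher after UNx, with a median difference of 1.79 percentile points against −0.0112 over all tested regions. The remaining 17 member regions were present in 1 or 2 lists and were not tested.

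The 7 tested promoter regions leaned upward and the distal regions did not. Of the promoter regions 6 had the higher mean in UNx, and the median difference was 10.6 points (0.00366 over the 14008 tested protein-coding promoter regions). Limma called 0 of the 7, against 60 of the 14008, and 1 of the 7 had an unadjusted p under 0.05, against 18.6% of all tested regions. Since 3 of the 7 belong to Spp1, these are values of 5 genes. The median was 5.28 without Sham 1, 5.86 without Sham 3, 5.24 with a promoter window of 2.5 kb, 6.32 with ranking by fold enrichment, 4.27 with no filter on list number and 16.5 with 20000 peaks per list, where 1 region was left. Among the podocyte markers the Synpo promoter region rose after UNx (46.4 ± 6.16 and 77.5 ± 5.04, SD, n = 3 each, with an adjusted p of 0.0373 in limma), and that of Wt1 was at 39.8 ± 0.755 and 57.2 ± 8.18 (limma unadjusted p = 0.0471, adjusted p = 0.262); their part in the promoter values of the injury genes was not tested. Of the 47 tested distal regions, 24 had the higher mean in UNx and the median difference was 0.961 points. Leaving out those at other protein-coding starts, 19 of 38 had the higher mean and the median was 0.533, against −0.0254 over all tested regions away from such starts. The median over the 47 was −0.500 without UNx 1, −0.338 with GC-corrected ranks and −2.75 with single summits ranked, and it was −6.62 when the window was narrowed to 10 kb, which leaves 11 distal regions, 3 of them higher.

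Spp1 encodes osteopontin, a secreted phosphoprotein that binds integrins and CD44. The gene lies at chr5:104435118-104441050 on the + strand (ENSMUSG00000029304.14), and its window held 18 regions, against a median of 9 (quartiles 3 and 15) for protein-coding genes. The region over its first start, chr5:104434871-104435376, had its summit between 12 bp upstream and 25 bp downstream of the start in every list. Its percentile was 55.2, 23.7 and 35.4 in Sham 1, 2 and 3 and 65.5, 72.8 and 66.0 in UNx 1, 2 and 3. All 3 UNx libraries were above all 3 Sham libraries, and the Sham libraries were the more scattered. The means were 38.1 ± 15.9 and 68.1 ± 4.04 (SD, n = 3 each), a difference of 30.0 ± 8.48 points (SE; limma unadjusted p = 0.00229, adjusted p = 0.0863), so this region was not called. Without Sham 2, the lowest library, the difference was 22.8 points (limma adjusted p = 0.199).

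The other regions at the Spp1 starts had overlapping groups. A region with its summit 681 bp upstream was at 5.84, 45.5 and 11.2 in Sham and 25.0, 25.7 and 43.5 in UNx libraries. A region at a later annotated start, with its summit 373 bp downstream of it, was at 49.7, 49.7 and 55.2 in Sham and 34.1, 56.1 and 53.0 in UNx libraries. The mean was 10.6 points higher in UNx at the upstream region and differed by −3.79 points at the later start. The latter was the strongest start summit in Sham 2 and 3, so that over any start of Spp1 the strongest summit had means of 53.4 ± 3.16 for Sham and 68.1 ± 4.04 for UNx (SD, n = 3 each), 14.7 points apart. One more region, 399 bp downstream of the first start, was in 3 of the 6 deposited lists. When each summit was ranked on its own, with 50 bp on either side, a summit 697 bp downstream of the nearest start was in no Sham list among the ranked summits and at 22.2, 13.1 and 54.6 in the UNx group (limma unadjusted p = 0.0219, adjusted p = 0.221). It was not absent from the deposited Sham lists. Sham 1 held a weak summit at 690 bp and Sham 3 one at 674 bp, with a −log10 q of 5.74 and 3.19.

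The sequence upstream of the first Spp1 start is shown because the strongest differing summit at a member start lies at its end. It is the RefSeq window chr5:104434861-104435110 (GRCm38.p6, + strand). The capitals mark its match to the RUNX string TGTGGTT, read on the other strand, which begins at base 122 of the window. The match lies inside the region over the first start but not within 100 bp of its strongest summit, where none of the strings was found.
Spp1 upstream: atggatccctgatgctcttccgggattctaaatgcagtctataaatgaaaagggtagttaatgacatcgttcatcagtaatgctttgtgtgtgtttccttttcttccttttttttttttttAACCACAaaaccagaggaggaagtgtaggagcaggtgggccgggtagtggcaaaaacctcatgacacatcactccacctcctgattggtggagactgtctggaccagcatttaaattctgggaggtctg
RUNX factors are known regulators of Spp1 in bone. The string occurred in 4.40% of 32851 RefSeq promoter windows of the same length, and none of the other strings searched (AP-1, CRE, STAT, NF-kB, TEAD, HNF1, HNF4, SOX) was in this window.

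Away from its start, Spp1 was flanked by open distal regions that went in both directions. An intergenic region 35.4 kb upstream, chr5:104399230-104400252, stood at 78.2, 65.5 and 75.6 in Sham and 81.0, 83.3 and 88.7 in UNx libraries. All 3 UNx values were above the Sham values (11.3 points; limma unadjusted p = 0.0179, adjusted p = 0.175). An intergenic region 10.2 kb downstream, chr5:104446069-104446605, went the other way, from 92.1, 87.4 and 92.4 in Sham to 87.3, 86.7 and 73.8 in UNx libraries. The groups nearly touched there without overlapping (−8.01 points; limma unadjusted p = 0.0262, adjusted p = 0.205). The strongest distal region of the window was the promoter of the neighbouring gene Pkd2, encoding polycystin-2, at 87.5, 90.0 and 92.4 in Sham and 85.9, 84.9 and 89.8 in UNx libraries, with overlapping groups. The 201 bases around the summits of the first pair (GRCm38, + strand, chr5:104399627-104399827 and chr5:104446315-104446515) are shown because they are the distal Spp1 regions whose groups did not overlap.
Spp1 upstream 35.4 kb: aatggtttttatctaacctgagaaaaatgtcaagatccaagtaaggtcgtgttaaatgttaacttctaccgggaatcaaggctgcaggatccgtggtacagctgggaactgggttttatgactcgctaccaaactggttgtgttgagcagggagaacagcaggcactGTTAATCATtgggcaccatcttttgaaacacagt
Spp1 downstream 10.2 kb: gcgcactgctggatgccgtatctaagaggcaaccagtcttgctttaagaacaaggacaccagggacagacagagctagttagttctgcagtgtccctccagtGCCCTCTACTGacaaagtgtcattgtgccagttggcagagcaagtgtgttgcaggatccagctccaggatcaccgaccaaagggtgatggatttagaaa
In the upstream region the capitals mark a match to the HNF1 string GTTAATNAT. HNF1 factors are homeodomain proteins of the proximal tubule, and the string was in 3.11% of all tested regions within 100 bp of the summit. In the downstream region the capitals mark a match to the CTCF consensus, read on the other strand.

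**Figure D3:**
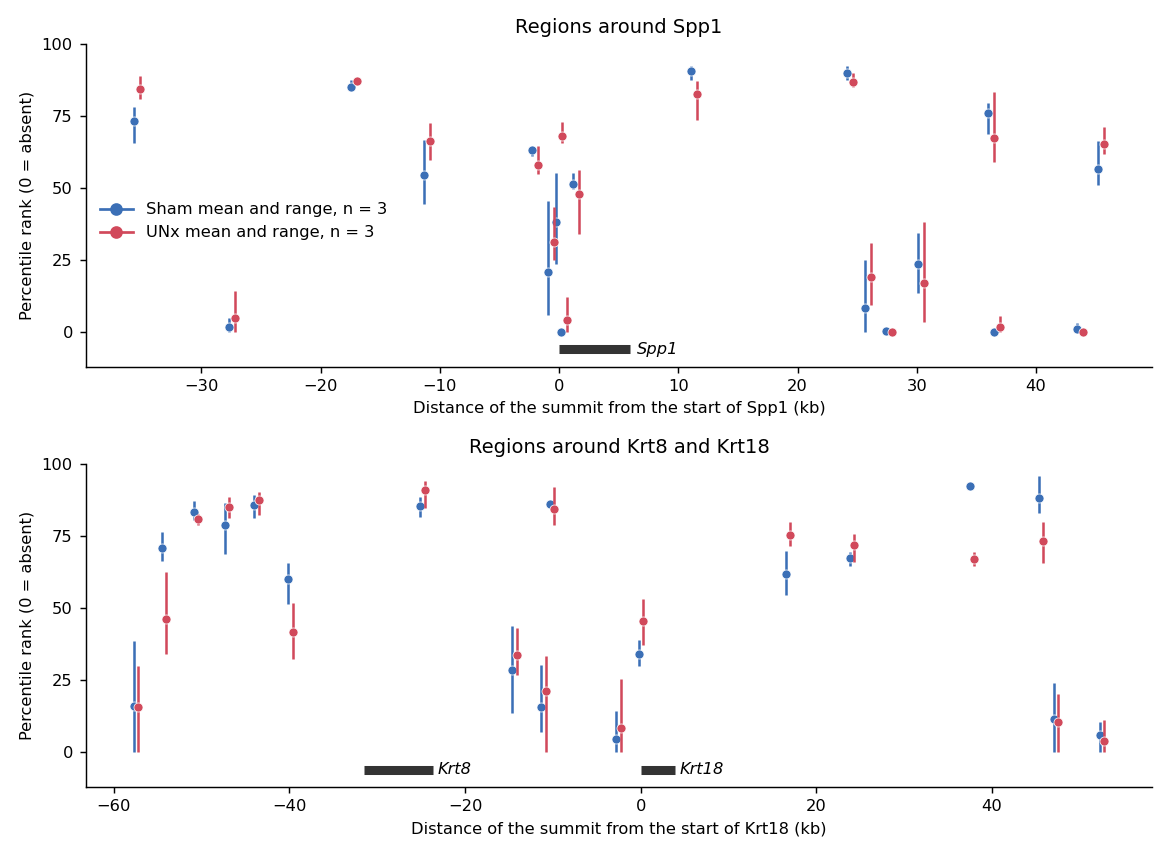
Percentile rank of every region (vertical axis, 0 to 100, 0 meaning absent) by the distance of its summit from the first start of the gene (horizontal axis, kb), around Spp1 (top) and around Krt8 and Krt18 (bottom), with the mean and range of the 3 Sham and 3 UNx libraries. The black bars are the gene bodies. Distances in the top panel are from the first Spp1 start and in the bottom panel from the Krt18 start, both along the chromosome. Distances in the text are from the nearest annotated start of the gene named, along its strand. Around Spp1 they differ by up to about the distance between starts. Krt8 is on the − strand, so regions downstream of Krt8 stand at negative distances, and text distances from Krt8 are not those of the axis. The pair of groups at 37.7 kb downstream of Krt18, at 92.5 and 67.3, is the most separated one of the lower panel.

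Krt8 and Krt18 encode the type II and type I keratins that pair into the filaments of simple epithelia. They lie side by side on chromosome 15, Krt8 at chr15:101996698-102004482 on the − strand (ENSMUSG00000049382.10) and Krt18 at chr15:102028180-102032027 on the + strand (ENSMUSG00000023043.7). The Krt8 start was among the most open of the 10 genes, with its strongest start summit at 88.7, 81.7 and 84.0 in Sham and 93.9, 84.2 and 85.8 in UNx libraries. The Krt18 start was at 30.0, 32.8 and 39.1 in Sham and 37.3, 53.2 and 45.9 in UNx libraries. The pair partners thus differed more from each other than either did between the operations, and their groups overlapped (limma adjusted p = 0.543 for the Krt18 promoter region).

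At Krt8 the start summit and a summit in the first part of the gene body fell into 1 region, chr15:102002834-102004745, because 1 interval of UNx 2, 1877 bp wide, spans both. This joint region, counted as distal by its strongest summit 1167 bp into the gene, was at 88.7, 81.7 and 85.7 in Sham and 93.9, 84.8 and 94.3 in UNx libraries (limma adjusted p = 0.303). Ranked as separate summits, the one at the start (97 bp downstream) was at 91.1, 85.0 and 86.9 in Sham and 95.2, 87.0 and 88.3 in UNx libraries (limma adjusted p = 0.670).

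The region called among all member regions lies 37.7 kb downstream of the Krt18 start, at chr15:102065559-102066216, between genes and 7909 bp from the start of Eif4b, which encodes a translation initiation factor. It ranked at 92.3, 93.8 and 91.4 in Sham 1, 2 and 3 and at 64.7, 69.7 and 67.4 in UNx 1, 2 and 3, that is, from place 4828 to 6648 of 77355 in the Sham lists and from 23459 to 27294 in the UNx lists. Every UNx value lay below every Sham value, and the gap was wide against the spread within either group. The means were 92.5 ± 1.19 and 67.3 ± 2.48 (SD, n = 3 each), a fall of −25.2 ± 3.68 points (SE; limma unadjusted p = 1.89e-06, adjusted p = 0.0118). The direction was the same in all the fits that left out 1 library, but the call was lost without Sham 1, 2 or 3 or UNx 1 (limma adjusted p = 0.0800, 0.0697, 0.0898 and 0.0662). The difference in those fits was −25.3, −24.6, −25.8 and −24.0 points. The call was also lost with ranks corrected for GC content (−26.3 points; limma adjusted p = 0.0790), with each list cut to 20000 peaks (−70.9; 0.0645), with no filter on list number (−25.2; 0.112) and with ranking by fold enrichment (−10.8; 0.151).

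The region at the start of Eif4b itself, 45.6 kb from the Krt18 start, stood at 83.1, 96.0 and 85.8 in Sham and 74.8, 65.7 and 80.1 in UNx libraries. The groups did not overlap (−14.8 points; limma unadjusted p = 0.00322, adjusted p = 0.0951), so this neighbour went in the same direction but was not called. On the other side, a region 30.6 kb downstream of Krt8, chr15:101973733-101974044, was at 76.3, 66.5 and 70.2 in Sham and 34.3, 62.7 and 42.0 in UNx libraries. Its groups did not overlap either, though UNx 2 came close to the Sham values (−24.7 points; limma unadjusted p = 0.00491, adjusted p = 0.109).

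A region 16.2 kb downstream of Krt8 was at 65.8, 63.4 and 51.4 in Sham and 51.8, 41.2 and 32.4 in UNx libraries, with UNx 1 just above Sham 3 (limma unadjusted p = 0.0381, adjusted p = 0.240). A region 40.4 kb upstream of Krt8, which is 16.7 kb beyond the Krt18 start, was at 69.7, 54.5 and 61.9 in Sham and 74.9, 79.8 and 71.5 in UNx libraries, with no overlap (13.4 points; limma unadjusted p = 0.0301, adjusted p = 0.215). Differences of both signs thus lay within the same keratin neighbourhood, and none but that at 37.7 kb was called. The 201 bases around the summit (GRCm38, + strand) are shown for the called region, chr15:102065764-102065964, and for the Krt8 regions on either side whose groups did not overlap, chr15:101973808-101974008 and chr15:102044812-102045012.
Krt18 downstream 37.7 kb: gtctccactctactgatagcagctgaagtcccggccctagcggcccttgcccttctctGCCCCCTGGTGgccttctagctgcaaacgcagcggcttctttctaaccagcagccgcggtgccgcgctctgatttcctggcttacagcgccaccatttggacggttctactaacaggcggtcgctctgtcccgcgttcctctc
Krt8 downstream 30.6 kb: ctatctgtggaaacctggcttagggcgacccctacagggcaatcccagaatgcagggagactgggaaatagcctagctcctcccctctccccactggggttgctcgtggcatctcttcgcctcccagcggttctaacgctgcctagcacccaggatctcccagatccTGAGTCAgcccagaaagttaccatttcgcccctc
Krt8 upstream 40.4 kb: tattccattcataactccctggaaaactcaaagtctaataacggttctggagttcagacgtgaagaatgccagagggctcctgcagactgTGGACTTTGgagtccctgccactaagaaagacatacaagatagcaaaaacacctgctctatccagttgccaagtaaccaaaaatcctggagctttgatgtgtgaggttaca
The capitals mark the CTCF consensus in the called region, the AP-1 string TGACTCA in the region downstream of Krt8 and the HNF4 string CAAAGTCCA in the region upstream, each read on the other strand. CTCF is the zinc finger protein that anchors chromatin loops, AP-1 the Fos and Jun dimer, and HNF4 a nuclear receptor of the proximal tubule.

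The CTCF consensus was added to the search after the sequences of regions that fell had been read, so its matches are a description. It was in 2 of the 54 tested member regions, those 37.7 kb downstream of Krt18 and 10.2 kb downstream of Spp1, and both ranked lower after UNx. The RefSeq window upstream of Krt8 also holds a match, inside the joint Krt8 region but not within 100 bp of its strongest summit, and that region had the higher mean in UNx (5.59 points). Of all 74781 tested regions 5536 (7.40%) held it, and 22.7% of these ranked higher after UNx, with a median difference of −7.60 points. It was in 37 of the 264 regions called lower and in 0 of the 325 called higher.

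The other strings were spread thinly over the member regions. AP-1 was in 4 of 54 (7.41%, against 5.02% of all tested regions): the Clu promoter, the regions 30.6 and 27.0 kb downstream of Krt8 and the region 11.1 kb upstream of Spp1. Of these, the Clu promoter and the Spp1 region had the higher mean in UNx and both Krt8 regions the lower. HNF1 was in 3 regions (5.56%, against 3.11%), 1 near Havcr1 and the others near Spp1. TEAD (ACATTCC) and RUNX were in 2 regions each and STAT (TTCCNGGAA) and HNF4 in 1 each, while CRE (TGACGTCA), NF-kB (GGACTTTCC) and SOX (ACAAAGG) were in none.

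**Figure D4:**
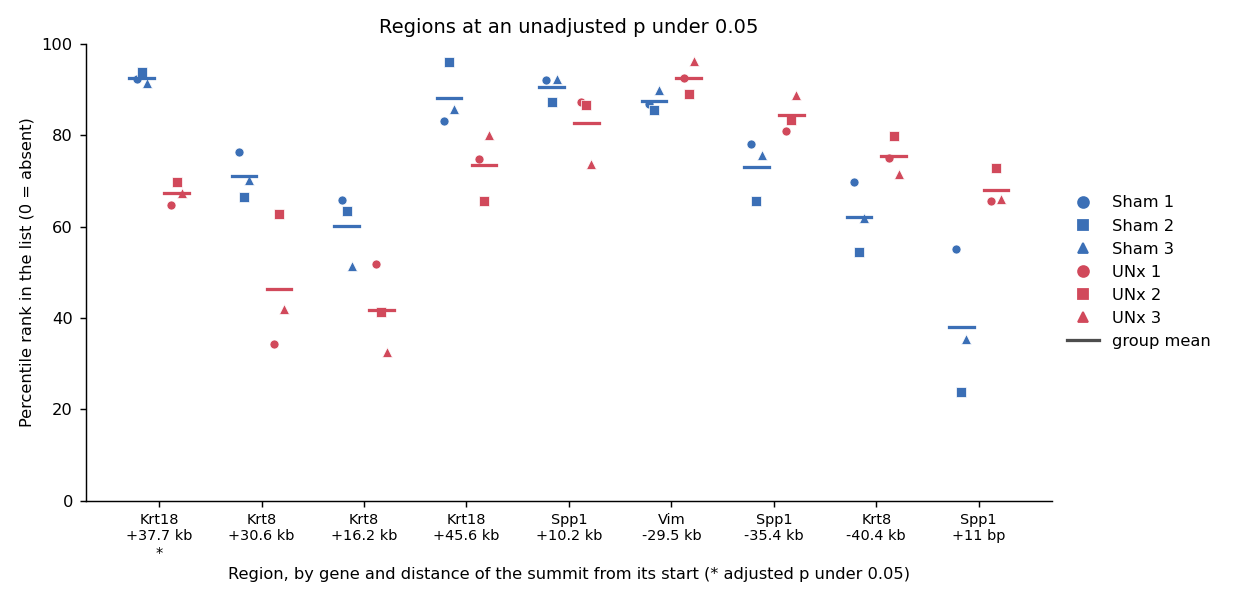
Percentile rank (0 to 100) in each library, with group means as lines, of the 9 tested member regions with an unadjusted limma p under 0.05, ordered from the most negative to the most positive difference. The region 37.7 kb downstream of Krt18 (star) is the one past an adjusted p of 0.05; 5 of the 9 ranked lower and 4 higher after UNx.

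Vim encodes vimentin, the intermediate filament protein of mesenchymal cells that dedifferentiated tubule cells also make. The gene lies at chr2:13573927-13582826 on the + strand. Its promoter region, chr2:13573456-13575201 with the summit in the first exon, was at 43.3, 43.4 and 29.0 in Sham and 54.2, 57.2 and 55.2 in UNx libraries. The 3 UNx libraries were tightly grouped above all Sham libraries, at 55.5 ± 1.49 against 38.6 ± 8.29 (SD, n = 3 each), but limma did not call the difference (16.9 points; unadjusted p = 0.0579, adjusted p = 0.287). A region in the first part of the Vim body, 1420 bp from the start, was at 28.4, 50.4 and 44.3 in Sham and 32.8, 49.8 and 20.6 in UNx libraries, with no separation. The strongest distal region was the promoter of Trdmt1, 29.5 kb upstream, at 87.0, 85.5 and 90.0 in Sham and 92.4, 89.1 and 96.3 in UNx libraries, with UNx 2 below Sham 3 (limma unadjusted p = 0.0407, adjusted p = 0.246).

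Clu encodes clusterin, a secreted chaperone, at chr14:65968483-65981547. Its promoter region was among the strongest of the 10 genes, at 85.1, 80.4 and 83.8 in Sham and 91.4, 92.0 and 78.8 in UNx libraries. UNx 3 fell below every Sham library, so the groups overlapped (limma adjusted p = 0.532). Inside and beyond the gene the values leaned the other way. An intron region 9533 bp from the start was at 35.9, 0 and 52.6 in Sham and 0, 25.4 and 0 in UNx libraries, and a region in an intron of the next gene, Gulo, 19.6 kb from the Clu start, was at 46.3, 0 and 59.9 in Sham and 5.66, 4.27 and 17.8 in UNx libraries (unadjusted p = 0.0679 and adjusted p = 0.308 in limma). In both cases Sham 2 was at 0 and the groups overlapped. The strongest distal region, 49.5 kb upstream, was at 76.8, 64.4 and 60.6 in Sham and 61.0, 70.8 and 44.7 in UNx libraries.

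Lcn2 encodes lipocalin 2, which binds iron-carrying siderophores and is released by injured tubules. No peak summit was found in the gene body or within 1 kb of the start (chr2:32384633-32388252, − strand) in any deposited list, which says that none was detectable at this unknown depth. Its window held 5 regions, all of them in or at the neighbouring genes Ciz1 and Dnm1. The strongest, at the Ciz1 start, was at 76.9, 79.6 and 79.6 in Sham and 81.0, 76.3 and 85.5 in UNx libraries, with overlapping groups. The distal region of smallest p lay at a Dnm1 start, 34.4 kb downstream of Lcn2. It was at 79.2, 85.9 and 77.1 in Sham and 67.4, 85.8 and 68.3 in UNx libraries, and the groups overlapped (−6.92 points; limma unadjusted p = 0.186, adjusted p = 0.485). A region in a Ciz1 intron 26.9 kb downstream of Lcn2 was at 32.0, 44.9 and 45.3 in Sham and 55.2, 53.0 and 47.1 in UNx libraries, with no overlap but a narrow gap (limma adjusted p = 0.514). Inside a Dnm1 intron, a region at chr2:32339993-32340437, 47.7 kb downstream of Lcn2, was in all 3 deposited UNx lists and in no Sham list, as were 1.25% of the 126099 regions of all deposited peaks. It was the only member region so divided, and it was weak, at 0, 7.29 and 27.5 among the strongest peaks of the UNx libraries.

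Vcam1 and Cd44 had few open regions, while the Havcr1 window held 8, most of them weak or at the neighbouring gene Timd2. Havcr1, whose product KIM-1 is a receptor for phosphatidylserine on dying cells and is made by injured proximal tubules, lies at chr11:46735080-46779578. A start summit was present in Sham 1 and Sham 3 among all deposited peaks and in no UNx list, and among the strongest peaks in Sham 3 alone, at 33.5. In Sham 3 it lay 112 bp upstream of an annotated start, in an intron of the gene. A region over the outer end of the gene, chr11:46734497-46735276, had its summit 5197 bp upstream of the nearest annotated start. It was in 2 deposited Sham lists and all 3 UNx lists, at 25.7, 0 and 13.8 in Sham and 0, 7.74 and 23.2 in UNx libraries, with overlapping groups (limma adjusted p = 0.909). Upstream of the gene a region at 6484 bp from the start was present in all 6 lists, at 30.3, 20.0 and 48.3 in Sham and 42.6, 33.1 and 46.2 in UNx libraries, with overlapping groups. The strongest region of the window, at a start of the neighbouring gene Timd2, was at 54.9, 50.4 and 66.8 in Sham and 70.9, 59.5 and 73.8 in UNx libraries (limma adjusted p = 0.408).

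Vcam1, an adhesion molecule known from tubule cells that fail to recover after injury, lies at chr3:116109949-116129688. Its start summit was in 5 of the 6 deposited lists but among the strongest peaks in 1 library of each operation, at 31.0 in Sham 2 and 25.7 in UNx 1. A second promoter region, with its summit 478 bp downstream of a start, was at 3.20 in Sham 2 and absent elsewhere. The strongest distal region of Vcam1, 24.4 kb downstream of a start, was at 8.89 in Sham 3 and 34.6 in UNx 2 and at 0 in the other libraries. None of the 4 Vcam1 regions was in enough lists to be tested. Cd44, the hyaluronan receptor and a receptor of osteopontin, spans 90525 bp at chr2:102811141-102901665, and no summit was found in its body or at any of its 7 annotated starts. Its window held 2 intergenic regions upstream, of which the one at 40.6 kb was at 20.4, 15.1 and 23.0 in Sham and 20.6, 21.7 and 33.5 in UNx libraries (limma adjusted p = 0.816).

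Sox9, a transcription factor of the developing nephron that is switched on again in repairing tubule cells, had 1 region in its whole window, over its first exon (chr11:112782033-112782804). It was in 2 deposited Sham lists and all 3 UNx lists, at 0, 0 and 2.90 in Sham and 0, 5.66 and 11.9 in UNx libraries among the strongest peaks. These are the lowest levels of any tested promoter region of the 10 genes, and the groups overlapped (limma adjusted p = 0.742).

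The members' peaks were also counted list by list. Among all deposited peaks, 68, 54 and 69 lay in the windows in Sham 1, 2 and 3 and 73, 73 and 72 in UNx 1, 2 and 3. Among the 77355 strongest of each list the numbers were 55, 54 and 60 in Sham and 60, 56 and 57 in UNx libraries. The low number of Sham 2 among all deposited peaks went with the shortest list, and with lists of equal length the groups overlapped.

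A further 30 genes of tubule injury and repair, such as the keratin gene Krt7, the stress gene Gdf15 and the cell cycle inhibitor gene Cdkn1a, were read the same way at their promoters. Of these, 22 had a start summit in all 6 deposited lists and 5 (Anxa1, C3, Ccl2, Itgb6 and Tnc) in none. Of the 23 with a tested promoter region limma called 0, against 60 of all 14008 tested protein-coding promoter regions. An unadjusted p under 0.05 was found for 2 of the 23, against 18.6% of all tested regions. The mean was higher in UNx for 12 of the 23, with a median difference over the 23 of 1.22 points. The Krt7 promoter region was at 35.8, 30.8 and 0 in Sham and 56.4, 69.4 and 42.8 in UNx libraries, every UNx value above every Sham value (limma unadjusted p = 0.00673, adjusted p = 0.123). The promoter region of Tnfrsf12a, the receptor of the cytokine TWEAK, went from 89.8, 82.8 and 88.7 in Sham to 70.6, 84.6 and 80.8 in UNx libraries, with UNx 2 among the Sham values (limma unadjusted p = 0.0386, adjusted p = 0.241).

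Cdkn1a is named here after its values were seen. As at Krt8, a wide interval joins its start summit to one in the gene, so it had no promoter region by the rule. Its strongest start summit was at 54.3, 58.0 and 62.6 in Sham and 69.3, 73.6 and 79.3 in UNx libraries, again with no overlap. Ranked as separate summits it was not called (limma unadjusted p = 0.0188, adjusted p = 0.210).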

How the data were processed

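Per the submitters' processing notes, the tools named were cutadapt 3.4, Bowtie, SAMtools, Picard and MACS2 2.2.7.1, with build mm10, the same assembly as GRCm38. Their settings and the filter behind the lists are not given in the sources used here. The authors deposited 1 narrowPeak list per library, with a display score, a fold enrichment (a ratio), a −log10 p and a −log10 q per summit. These are the authors' own values and were used only to rank or filter within a list. Summit positions were taken from the deposited offsets.

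Chromosomes 1 to 19, X and Y were used, and an interval counted as 1 peak, placed at its strongest summit. Each list was cut to its 77355 strongest peaks by −log10 q, and intervals that shared 1 bp or more became 1 region. Those in at least 3 of 6 lists were fitted with limma 3.58.1 in R 4.3.3 (two-sided test from lmFit and eBayes, trend and robust options on, p-values adjusted by Benjamini-Hochberg over all 74781), which was tested on simulated data. Depth is unknown, so no interval that needs it is given.

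The member genes and lists were chosen with earlier results of these data known. Named were all 10 genes, with every promoter region, the strongest distal region, the distal region of smallest p, every called region and every region of 1 operation only, and the 2 genes of smallest p among the other injury genes; further regions with an unadjusted p under 0.05, with separated groups or in a gene body, and Cdkn1a, were added after their values were seen. Consensus strings were searched on both strands within 100 bp of the summit. Promoter windows from RefSeq (GRCm38.p6) matched 7 of the 10 genes, not Clu, Sox9 or Vcam1.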

Additional observations from a re-analysis of the deposited data

How the results depend on the processing

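Over all tested regions limma called 22 regions with all deposited peaks, 2 with the 20000 strongest peaks, 3 with ranking by fold enrichment, 2 without the filter on the number of lists, 1583 with normal scores, 2 with GC-corrected ranks, 56 with the replicate block, 0 with the replicate block and GC-corrected ranks together (12274 at an unadjusted p under 0.05), 237 with summit windows, an alternative chosen after seeing the data, and 4 to 76 when 1 library was left out. Among the member regions limma called 0 in the 10 kb window (3 at an unadjusted p under 0.05), which does not reach the Krt18 region, and 0 with the 20000 strongest peaks (4), fold enrichment (5), no filter (8), GC-corrected ranks (10) and the replicate block with GC-corrected ranks (10), and 0 to 1 when 1 library was left out; the cause was not tested. The replicate block alone kept the Krt18 region (adjusted p = 0.0392), with GC-corrected ranks it was 0.169, and same-numbered libraries did not deviate together (correlations of deviations 0.00819, −0.100 and −0.0496). The distal median was −6.62 in the 10 kb window, where 11 regions are left. Of 307 values of 19 named regions under the alternatives, 292 kept direction and side of the threshold, 9 (all of the Krt18 region) lost the call and 6 reversed: the later Spp1 start to 0.238 with all deposited peaks and 3.03 without UNx 1 (−7.97 to 3.03 leaving out each library), the Ciz1 start near Lcn2 to −0.730 with fold enrichment and −0.0418 without UNx 3 (−0.0418 to 4.59), the region 49.5 kb upstream of Clu to 2.18 with fold enrichment, and that 40.6 kb upstream of Cd44 to −5.11 with summit windows. The unknown depth limits what absence from a list can show.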
